A study of Mus musculus with 10 samples.

Results

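H3K27ac, the acetylation of lysine 27 on histone H3, was compared between neutrophils lacking the long non-coding RNA Morrbid and wild-type neutrophils, over 67733 consensus peaks of the 246468 listed for the 4 marks of the series. All H3K27ac peaks were taken and described apart as promoter peaks, whose centre lies within 3 kb of an annotated transcription start (12004 peaks, 17.7%), and distal peaks, whose centre lies farther away (55729 peaks, 82.3%). The knockout library (KO) came from Morrbid-deficient mice on a C57BL6 background and the wild-type library (WT) from C57BL6 mice. In both cases neutrophils were sorted and used ex vivo without culture, and chromatin was precipitated with a rabbit polyclonal antibody from Abcam. The labels give no age, sex or number of animals. There was 1 library per genotype, so the differences were not checked against replicates and no test across animals was possible. Values are given with 95% counting intervals that cover the error of counting reads only. In bulk chromatin, fewer cells carrying a mark and less of it per cell cannot be told apart.

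The acetyltransferases p300 and CBP place H3K27ac on nucleosomes beside active promoters and enhancers, and bromodomain proteins bind acetylated histones there. Distal H3K27ac is commonly used with H3K4me1 to tell active enhancers from merely marked ones, and H3K4me3 labels promoters. In neutrophils, short-lived phagocytes that respond within minutes to adhesion and inflammatory signals, the mark lies over granule, chemoattractant receptor and immediate-early genes. Immediate-early genes, among them the FOS and JUN families that form the AP-1 transcription factor, the zinc-finger factors EGR and KLF and the nuclear receptors NR4A, are switched on without new protein synthesis. Morrbid lies near Bcl2l11, which encodes the pro-apoptotic protein BIM.

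The promoters at the centre of the results are printed here, as listed by RefSeq for GRCm38.p6, from 250 bases before to 50 bases after the transcription start and written 5′ to 3′ along the gene. Bcl2l11 (the first of its windows, plus strand) is the gene next to the deletion, and Fos (plus strand), Fosb and Atf3 (both minus strand) are AP-1 genes with lower H3K27ac in the KO. Capitals mark TGACG, the core of the cyclic AMP response element, read on either strand.
Bcl2l11, chr2:128125788-128126087: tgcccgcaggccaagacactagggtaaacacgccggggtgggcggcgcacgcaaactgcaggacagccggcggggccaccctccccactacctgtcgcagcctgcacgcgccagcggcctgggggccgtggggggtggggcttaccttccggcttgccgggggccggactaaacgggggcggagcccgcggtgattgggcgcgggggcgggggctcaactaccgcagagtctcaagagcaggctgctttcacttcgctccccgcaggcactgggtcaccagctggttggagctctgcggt
Fos, chr12:85473640-85473939: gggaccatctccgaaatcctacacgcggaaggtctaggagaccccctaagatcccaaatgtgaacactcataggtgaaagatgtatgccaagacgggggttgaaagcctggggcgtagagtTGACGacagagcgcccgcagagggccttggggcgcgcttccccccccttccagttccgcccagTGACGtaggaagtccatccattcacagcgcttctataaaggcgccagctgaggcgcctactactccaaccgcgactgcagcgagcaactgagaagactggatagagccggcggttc
Fosb, chr7:19309996-19310295: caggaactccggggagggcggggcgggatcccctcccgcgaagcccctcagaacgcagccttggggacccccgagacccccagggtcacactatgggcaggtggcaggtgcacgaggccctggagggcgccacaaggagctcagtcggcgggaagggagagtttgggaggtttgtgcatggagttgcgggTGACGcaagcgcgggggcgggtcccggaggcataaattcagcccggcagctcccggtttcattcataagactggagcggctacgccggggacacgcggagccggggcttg
Atf3, chr1:191183284-191183583: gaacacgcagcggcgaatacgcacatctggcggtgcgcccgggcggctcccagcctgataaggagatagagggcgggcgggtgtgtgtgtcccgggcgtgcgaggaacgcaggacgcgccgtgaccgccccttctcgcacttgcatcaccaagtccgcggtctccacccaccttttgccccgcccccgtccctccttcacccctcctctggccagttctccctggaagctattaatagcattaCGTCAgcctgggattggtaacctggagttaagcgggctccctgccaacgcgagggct

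The Fos window holds the core 2 times, Fosb and Atf3 hold it 1 time each, and the Bcl2l11 window holds none. Of the 10 AP-1 genes with a well-measured promoter, 9 had a window in the RefSeq table (first listed window of each gene). Fos is not among the 10, as its peak across the start is counted as distal by its centre. Windows were matched for 6270 of the 8277 genes with a well-measured promoter, the like background. TGACG was in 5 of the 9, against 34.5% of these 6270 genes and 21.0% of 27018 genes over all. The AP-1 recognition site TGANTCA was in 0 of the 9, against 4.99% of the 6270 and 7.94% of all. With 9 genes, the difference in shares was not tested. These letters describe the sequence and say nothing of what binds there.

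The H3K27ac tables held 10265524 recovered reads in peaks for the KO and 2250264 for the WT, 4.56 times fewer, so the WT sets the precision. A read was worth 0.616 normalized units in KO and 2.75 in WT cells. A peak with 1 read in both libraries therefore has a fixed log2(KO/WT) of -2.16, and 8114 peaks, 7889 of them distal, were of this kind. Peaks were called well-measured where the mean of both values was worth at least 20 WT reads (55.1 normalized reads). This kept 8429 promoter peaks (70.2% of them) and 14043 distal peaks (25.2%), together holding 88.4% of KO and 88.9% of WT reads. The change of a peak is log2 of (KO + 1) over (WT + 1), less the median over well-measured peaks, which was 0.06. Of the 24 neutrophil genes listed, 20 had a well-measured peak, and their summed H3K27ac was 34683 normalized reads in KO and 36152 in WT cells. S100a8, a calprotectin subunit gene, had the strongest WT distal sum of them (5789), while Ly6g, S100a9 and Cebpb had no peak assigned to them. The summed level of the 18 monocyte, macrophage and dendritic markers was 5418 in KO and 5412 in WT cells, of 16 lymphocyte markers 1277 and 1247, of 15 eosinophil, basophil and mast cell markers 2910.3 and 2579.5, and of 14 erythroid and platelet markers 897 and 930.5. C1qa, Cd3e, Cd4, Cd8a, Epx and the globin genes were among the markers with no peak. Others had clear signal, the strongest of each list in WT cells being Ly6c2 (1173), Klrb1c (352), Kit (713) and Gp9 (292). The part of other cells in the changes below was not tested.

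Signal over the Morrbid locus was compared with the labels. The interval called the deletion was set from these data, as the run of consecutive peaks at the KO minimum of 1 read. It lies on chromosome 2 (mm9) between positions 128074258 and 128243283. That all 13 H3K27ac peaks wholly inside it were at this minimum follows from its definition and is no separate check. The labels are met only in that this run lies at Morrbid and has signal in the WT. The WT had 24.8 to 317 normalized reads at these 13 peaks. The strongest of them was at least 171-fold lower, counted against 3 reads in the KO.

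Most of the acetylation landscape was shared. The median change was -0.02 over well-measured promoter peaks (SD over peaks 0.28) and 0.02 over distal peaks (SD 0.32), and the medians of the 20 chromosomes lay between -0.01 and 0.02. Promoter peaks held 38.9% of KO reads (exact interval 38.91 to 38.97) and 39.7% of WT reads (39.59 to 39.72), a small difference. The direction of the peaks that differed most depended on the centring. A gain of 1.5-fold or more in the KO was seen at 148 promoter peaks (1.76% of those well-measured), and a loss of that size at 253 (3.0%), 1 of them at the edge of the deletion. Among distal peaks 447 gained (3.18%) and 320 lost this much (2.28%), 4 of the latter in the deletion. Without centring the promoter counts were 227 and 182, and centred on the median of all peaks 222 and 185, so that more promoters were higher than lower. Centred on peaks of similar level the distal counts were 371 and 376, and on peaks of similar signal per kb 296 and 387. At 2-fold, 12 promoter peaks were higher (0.142%) and 30 lower (0.356%), and 42 distal peaks were higher (0.299%) and 33 lower (0.235%). Higher calls rested on few WT reads, with a median of 24 at promoters and 21 at distal sites, against 43 and 34 for lower calls. Counting intervals lay wholly below 0 for 10.9% of promoter peaks and wholly above 0 for 4.59%, and at distal sites for 6.83% and 4.96%.

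The change also varied with the kind of peak. In the sixth of peaks with the highest mean level, the median change was -0.09 at promoters and -0.05 at distal sites, and none of these peaks was 1.5-fold higher. At distal sites, the fifth of peaks with the least signal per kb had a median of 0.10 and the fifth with the most a median of -0.13. Promoter peaks up to 1 kb wide were at least 1.5-fold lower in 11.5% of cases, those over 10 kb in 0.358%. Peaks annotated to CpG islands were at least 1.5-fold lower in 5.94% of promoter and 12.1% of distal cases, against 2.63% and 2.18% of other peaks. Depth differed between the libraries, and its part in these trends was not tested.

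**Figure D1:**
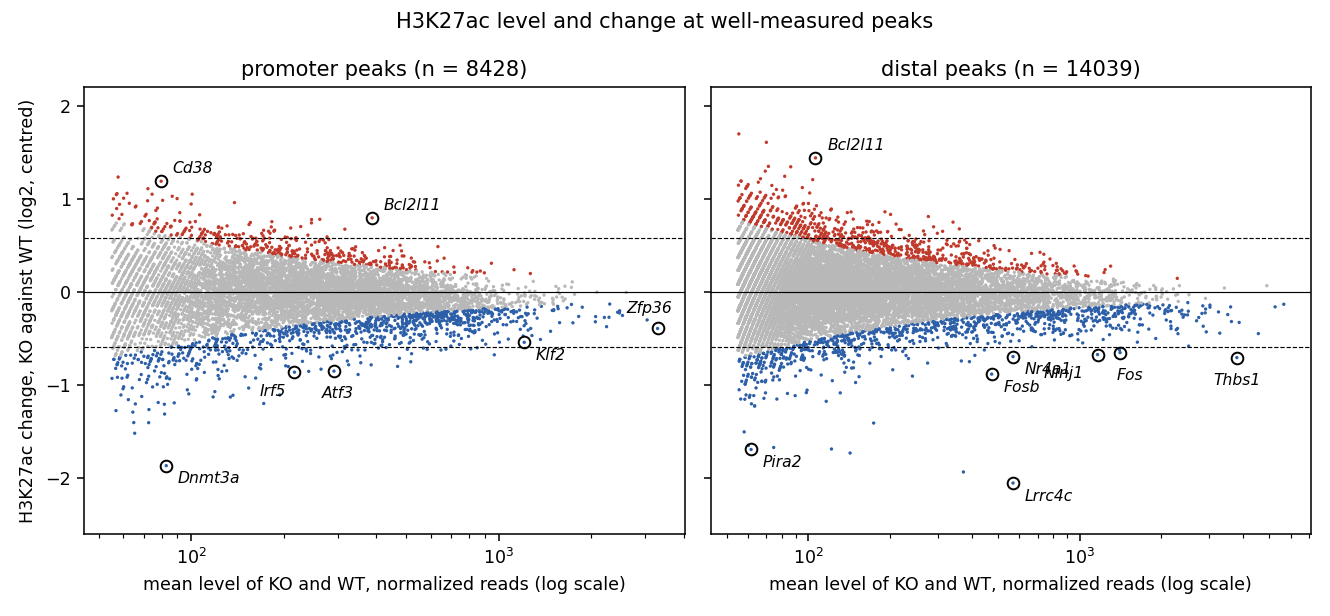
H3K27ac change (log2, KO against WT, centred) against the mean level of both libraries (normalized reads, log axis) for well-measured promoter peaks (left) and distal peaks (right) outside the deletion; red and blue points have counting intervals above and below 0, and dashed lines mark 1.5-fold. Bcl2l11 stands at the upper edge of promoter peaks of its level, while Fosb, Nr4a1, Fos, Ninj1 and Thbs1 lie along the lower edge of strong distal peaks.

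Among strong promoters, Bcl2l11 stood highest. Its promoter peak (chr2:127948476-127954544, mm9) had 499 normalized reads in KO and 275 in WT cells, a log2 change of 0.80 (0.50 to 1.11), and ranked 1 of 3189 promoter peaks whose mean was worth at least 100 WT reads. Of 13 well-measured peaks annotated to Bcl2l11 outside the deletion (1 promoter peak, the others distal), 12 lay above 0, and 5 had intervals above 0. Over all well-measured peaks, intervals lay above 0 for 4.96% of distal and 4.59% of promoter peaks. Of all distal peaks within 100 kb of a start, 47.3% lay below 0. The well-measured peak nearest to the deletion, 115 kb past the start (chr2:128065852-128070444), had 158 in KO and 55.1 in WT cells (1.44, interval 0.80 to 2.19). A peak 7.97 kb past the start, in an intron, had 210.0 and 118 (0.76, 0.31 to 1.26), and one 89.5 kb past the start had 204 and 129 (0.59, 0.15 to 1.07). An upstream peak 59.4 kb before the start, inside the neighbouring gene Acoxl, had 301 and 295 (-0.03, -0.33 to 0.29), while its neighbour 68.6 kb before the start had 499 and 374 (0.36, 0.09 to 0.63). Higher signal at well-measured peaks thus ran from the promoter to the deletion and was patchy upstream. A weak peak 52.3 kb past the start, not well-measured, went the other way with 14.2 and 22.0 (-0.66, -1.91 to 0.67). The peak across the far edge of the deletion, which holds the start of Gm14005, had 446 and 1930 (-2.17, -2.32 to -2.02). Gm14005 is the symbol under which Morrbid is listed. Beyond the deletion, its strongest peak had 889 in KO and 933 in WT cells (-0.13, -0.30 to 0.05). Its weaker well-measured peaks 65.1, 70.0 and 115 kb before its start had changes of -0.34, -0.73 and -0.36. Only the interval of the peak at 70.0 kb lay wholly below 0 (-1.37 to -0.07). Those 17.2 and 46.1 kb before the start had -0.05 and 0.09. All of these peaks but the one at 46.1 kb thus lay below 0.

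**Figure D2:**
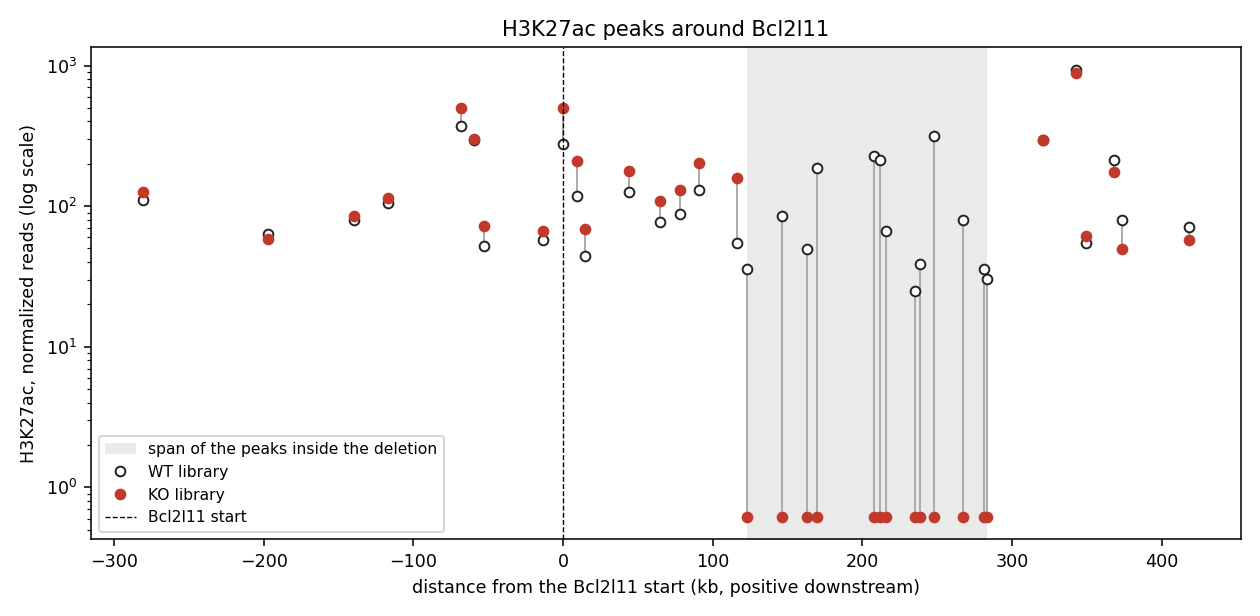
H3K27ac in the KO (red) and WT (open) libraries (normalized reads, log axis) at well-measured peaks around Bcl2l11, by distance from its start (kb); the grey span holds the 13 peaks inside the deletion, all at the KO minimum, well-measured or not. Between the start and the deletion each KO point lies above its WT point.

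The remaining promoter peaks with the highest changes were weak. Lipg (endothelial lipase) had 82.5 normalized reads in KO and 33.0 in WT cells (1.24, 0.41 to 2.25), and Cd38, an NAD-consuming surface enzyme, had 113 and 46.8 (1.19, 0.49 to 2.02). Psmg1, a proteasome assembly chaperone, had 138 and 63.3 (1.05, 0.44 to 1.75). Cd38 and Lipg were also higher over their distal peaks, Cd38 with 735 and 526 (0.42, 0.20 to 0.65). H3K4me3 was higher as well at both promoters, by 0.78 at Cd38 and 0.68 at Lipg, and 0.03 at Psmg1. With stronger signal, Ranbp6 had 185 and 90.8 (0.96, 0.45 to 1.53), Rbl2, a member of the retinoblastoma family, had 395 and 237 (0.68, 0.35 to 1.02), and Blm, a DNA helicase, had 286 and 168 (0.70, 0.32 to 1.12).

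The lowest promoters were narrow. The promoter peak of Dnmt3a, a de novo DNA methyltransferase, had 36.3 normalized reads in KO and 129 in WT cells (-1.86, -2.47 to -1.31), the lowest change of any well-measured promoter outside the deletion. Dusp8, a phosphatase of MAP kinases, had 33.9 and 79.8 (-1.27, -1.97 to -0.59), and Zbtb4, a zinc-finger repressor, had 48.0 and 116 (-1.31, -1.89 to -0.75). The 30 promoter peaks at least 2-fold lower had a median width of 1248.5 bases, against 2694 for all well-measured promoter peaks. Of promoter peaks with a mean worth at least 50 WT reads, Nat8l (-1.20), Dlg1 (-1.10) and Pbx3 (-1.03) were more than 2-fold lower. Other named promoter peaks of that strength outside the deletion were less than 2-fold lower. Among them were Irf5, a transcription factor of Toll-like receptor signalling, with 158 and 275 (-0.86, -1.20 to -0.52), Sh3glb1, a membrane-curving partner of BAX, with 396 and 639 (-0.75, -0.97 to -0.53), and Socs7, a cytokine signalling suppressor, with 271 and 440.5 (-0.76, -1.02 to -0.49).

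H3K4me3, measured in separate libraries, was lower at the same promoters. Of the 238 promoter peaks at least 1.5-fold lower in H3K27ac that had a well-measured H3K4me3 peak, 194 (81.5%) lay below 0 with a median of -0.27, against 64.1% of all well-measured promoters and a median of -0.07. Of those with a mean worth at least 50 WT reads, 65 of 67 lay below 0 (97.0%), with a median of -0.43. The share over all promoters of that level was not computed. Among promoters of that level at least 1.5-fold higher in H3K27ac, 12 of 28 lay below 0 in H3K4me3 (42.9%). At the lower promoters of Kcmf1, Kpna3 and Lemd2 H3K4me3 was -0.83, -0.79 and -0.83. Promoters at least 1.5-fold higher in H3K27ac had an H3K4me3 median of 0.02, with 58.2% above 0 against 35.9% of all. H3K4me1 at the lower promoters had a median of -0.07, against -0.03 over all promoters. The correlation of changes across peaks was weak, from 0.04 to 0.26 over the marks and classes.

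Promoters of immediate-early genes carried less H3K27ac in the KO, and so did the distal sites of AP-1 genes. The gene lists here and below were chosen with earlier results of these data known. Their shares therefore describe the lists and are no independent support. Of the 13 AP-1 factor genes listed, 10 had a well-measured promoter. Of these 9 lay below 0, against 54.0% of 8330 genes, and 6 had intervals below 0, against 11% of genes (and 4.54% with intervals above 0). Their median change was -0.30, against -0.02 for all genes. At distal sites within 100 kb all 9 measured AP-1 genes lay below 0 (42.5% of 6960 genes did), 5 with intervals below 0 (7.66% of genes; 8.39% lay above), and the median was -0.16 against 0.04. Because these promoters are strong and strong promoters leaned lower, changes were also centred on the running median of genes of similar level, which left -0.16 at promoters and -0.19 at distal sites.

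Fosb, whose product dimerizes with JUN proteins, had 304 normalized reads at its promoter in KO and 424 in WT cells (-0.54, -0.80 to -0.27). Its upstream peak (chr7:19900979-19907813, mm9; 9.0 kb before the start) had 342 and 606 (-0.88, -1.11 to -0.65). Atf3, a stress-induced repressor of inflammatory genes, had 213 and 369 at its promoter (-0.85, -1.14 to -0.55), the lowest AP-1 promoter. Its peaks 10.8, 16.8 and 40.9 kb upstream had 129.9 and 176 (-0.50, -0.91 to -0.07), 301 and 485 (-0.75, -1.0 to -0.49), and 535 and 644 (-0.33, -0.54 to -0.11). Only the weakest measured Atf3 peak, 65.6 kb upstream, lay above 0, with 92.4 and 79.8 (0.15, -0.43 to 0.78). Fosb and Atf3 thus had less acetylation at their promoters and at separate upstream elements. Fos, the prototype immediate-early gene, has a peak 10.1 kb wide (chr12:86806393-86816536, mm9) that is counted as distal by its centre but reaches across the start shown above. It held 1124 in KO and 1693 in WT cells (-0.65, -0.78 to -0.52), and the Fos peak 14.2 kb downstream held 459 and 569.9 (-0.37, -0.60 to -0.14). Of the 6 well-measured Fos peaks, 5 lay below 0.

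The JUN partners differed among themselves. Jund had 909.5 normalized reads in KO and 1239 in WT cells (-0.50, -0.66 to -0.35), and Junb 1877 and 2246 (-0.32, -0.43 to -0.21). Jun itself had 769 and 796 (-0.11, -0.29 to 0.08), so that no difference was detectable with these reads. Fosl2 had 1579.5 and 1905 (-0.33, -0.45 to -0.21), while Fosl1 was the promoter above 0, with 508 and 451 (0.11, -0.13 to 0.36). Batf and Maff, basic leucine zipper partners, lay within 0.05 of 0 with intervals on both sides.

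**Figure D3:**
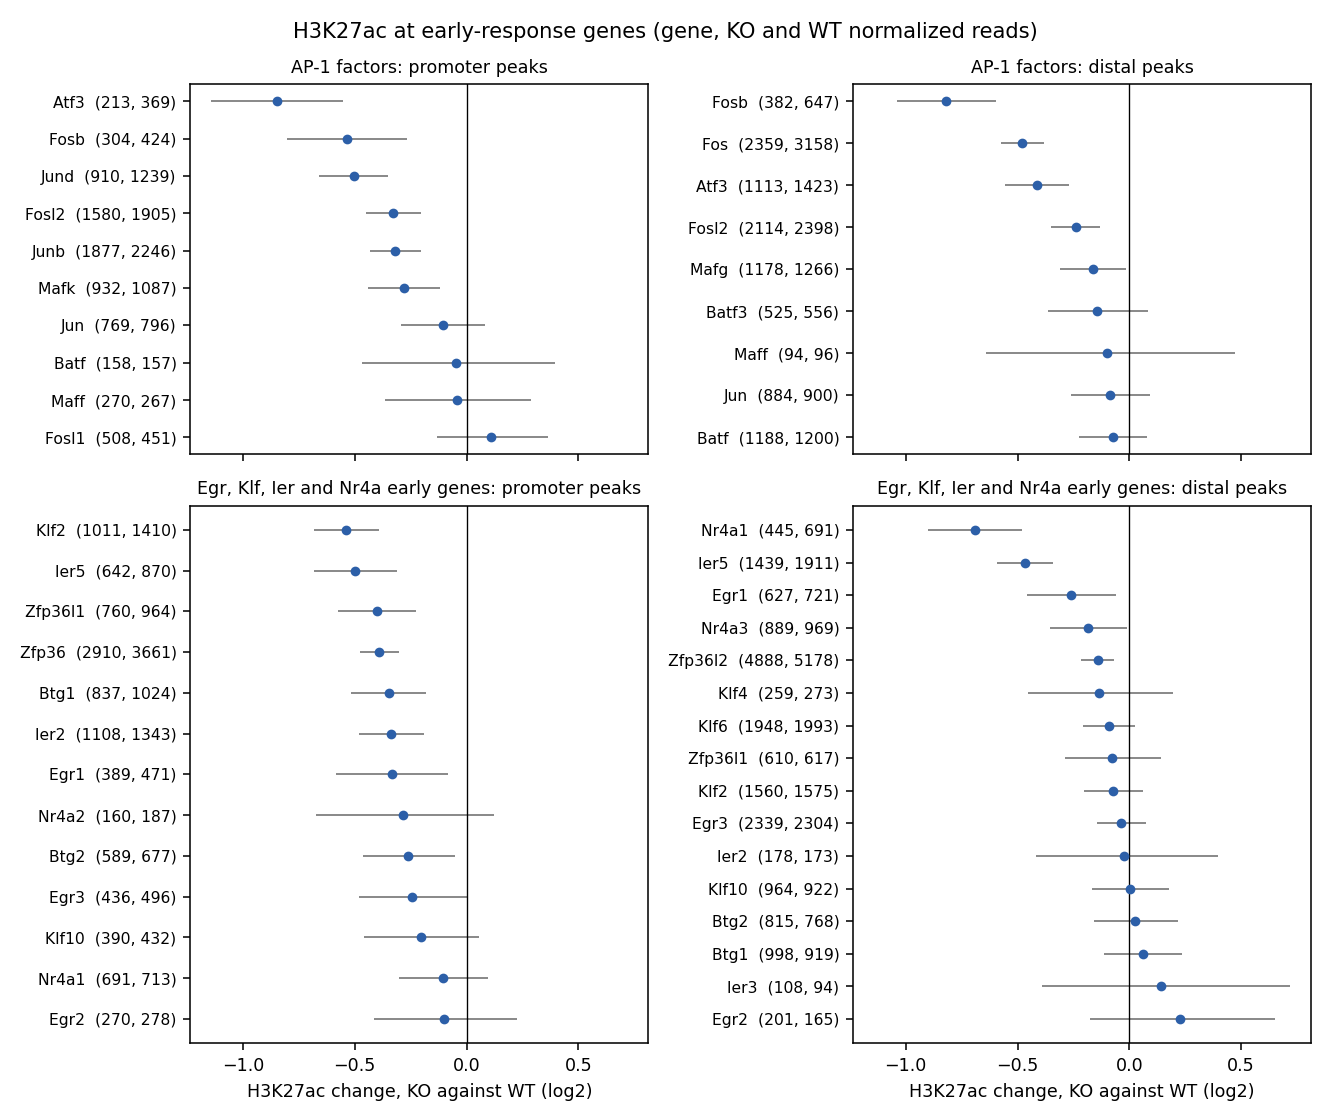
H3K27ac change (log2, KO against WT) with 95% counting intervals for AP-1 factor genes (top) and Egr, Klf, Ier and Nr4a early genes (bottom), summed over promoter peaks (left) and distal peaks within 100 kb (right); numbers beside each gene are KO and WT normalized reads. At promoters, Fosl1 is the gene above 0 among the 23 shown.

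The other early genes moved the same way at promoters and less evenly at distal sites. All 13 measured of 18 listed Egr, Klf, Ier, Nr4a, Btg and Zfp36 promoters lay below 0 (54.0% of all genes), with a median of -0.34 (-0.22 on the running median, 12 below 0), and 8 had intervals below 0 (11% of all genes). Klf2, a factor that restrains NF-kB dependent activation of myeloid cells, had 1011 normalized reads in KO and 1409.5 in WT cells (-0.54, -0.68 to -0.39). Zfp36, whose product tristetraprolin destabilizes cytokine mRNAs, had one of the strongest promoters, with 2910.3 and 3661 (-0.39, -0.48 to -0.30). Ier5 had 642 and 869.9 at its promoter (-0.50, -0.68 to -0.31) and 1439 and 1911 over 10 distal peaks (-0.47, -0.59 to -0.34), and Egr1 had 389 and 471 at its promoter (-0.34, -0.58 to -0.08). Of 16 measured distal sums 11 lay below 0 (42.5% of all genes), 5 with intervals below 0 (7.66%), and the median was -0.07 against 0.04. Nr4a1, a nuclear receptor induced within minutes of stimulation, was lower at its upstream peak, with 445 and 691 (-0.69, -0.90 to -0.48), while its promoter had 691 and 713 (-0.10, -0.30 to 0.10). Klf2 was lower at the promoter, and its distal sum was 1559.8 and 1575 (-0.07, -0.20 to 0.06). Dusp1, the phosphatase that switches off p38 and JNK, had 3834 and 4955 over 7 distal peaks (-0.43, -0.51 to -0.35), and its strongest peaks were lower, the peak across its start with 1132 and 1671 (-0.62, -0.75 to -0.49), and that 26.3 kb upstream with 1428 and 1847 (-0.43, -0.56 to -0.30). Over the 8 measured promoters of the 11 dual-specificity phosphatases listed, 5 lay below 0 (54.0% of all genes), and over 9 distal sums again 5 (42.5%), shares near those of all genes. Dusp4 had more distal H3K27ac in the KO, with 185 and 110.1 (0.68, 0.21 to 1.20).

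Most inducible cytokine and chemokine genes lay below 0. Of 16 measured promoters of the 22 listed, 14 did (54.0% of all genes), with a median of -0.20 against -0.02, and 5 had intervals below 0 (11%). Of 15 distal sums 12 lay below 0 (42.5% of all genes), with a median of -0.16 against 0.04, and 6 had intervals below 0 (7.66%). Ccl6, a chemokine of resting myeloid cells, had 194 normalized reads at its promoter in KO and 295 in WT cells (-0.66, -0.98 to -0.33), and 1046 and 1341 at distal sites (-0.42, -0.56 to -0.27). Ptgs2, the inducible cyclooxygenase, had 116 and 171 (-0.62, -1.04 to -0.18), and Osm, an IL-6 family cytokine stored and released by neutrophils, had 2001 and 2483 (-0.37, -0.48 to -0.26). Distal sums were 837 and 1054 for Il1b (-0.39, -0.56 to -0.23), 588 and 727 for Cxcl1 (-0.36, -0.56 to -0.16), and 727 and 949.8 for Ccl3 (-0.44, -0.62 to -0.27), genes of a pyrogenic cytokine and of chemokines that recruit leukocytes. Ccl4, next to Ccl3, lay above 0 at its promoter, with 138 and 113 (0.23, -0.26 to 0.75), and so did Lif, with 179.8 and 154 (0.16, -0.25 to 0.60).

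H3K4me1 and H3K4me3 were nearer to 0 at the AP-1 elements and at the Egr, Klf, Ier and Nr4a promoters, but not at every early gene. Over the 29 well-measured distal peaks of AP-1 genes the median change was -0.22 for H3K27ac and -0.09 for H3K4me1 (28 peaks with a value). Over the 30 distal peaks of the cytokine list it was -0.25 and 0.02 (29 with a value). At AP-1 promoters the medians were -0.30 for H3K27ac, -0.09 for H3K4me1 and -0.03 for H3K4me3, and at the Egr, Klf, Ier and Nr4a promoters -0.34, -0.07 and -0.04. At the Fosb upstream peak H3K4me1 was -0.07 and H3K4me3 0.09, at the Fos peak -0.03 and 0.16, and at the upstream Nr4a1 peak -0.03 and -0.03. At the Atf3 promoter H3K4me3 was 0.14, in contrast with Kcmf1 and Kpna3. At promoters of dual-specificity phosphatases the medians were -0.19 for H3K27ac, -0.16 for H3K4me1 (6 of 6 below 0) and -0.24 for H3K4me3 (8 of 8 below 0). H3K4me3 was -0.72 at the Ccl6 promoter and -0.73 at the Il1b promoter, where H3K27ac was -0.66 and -0.19.

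**Figure D4:**
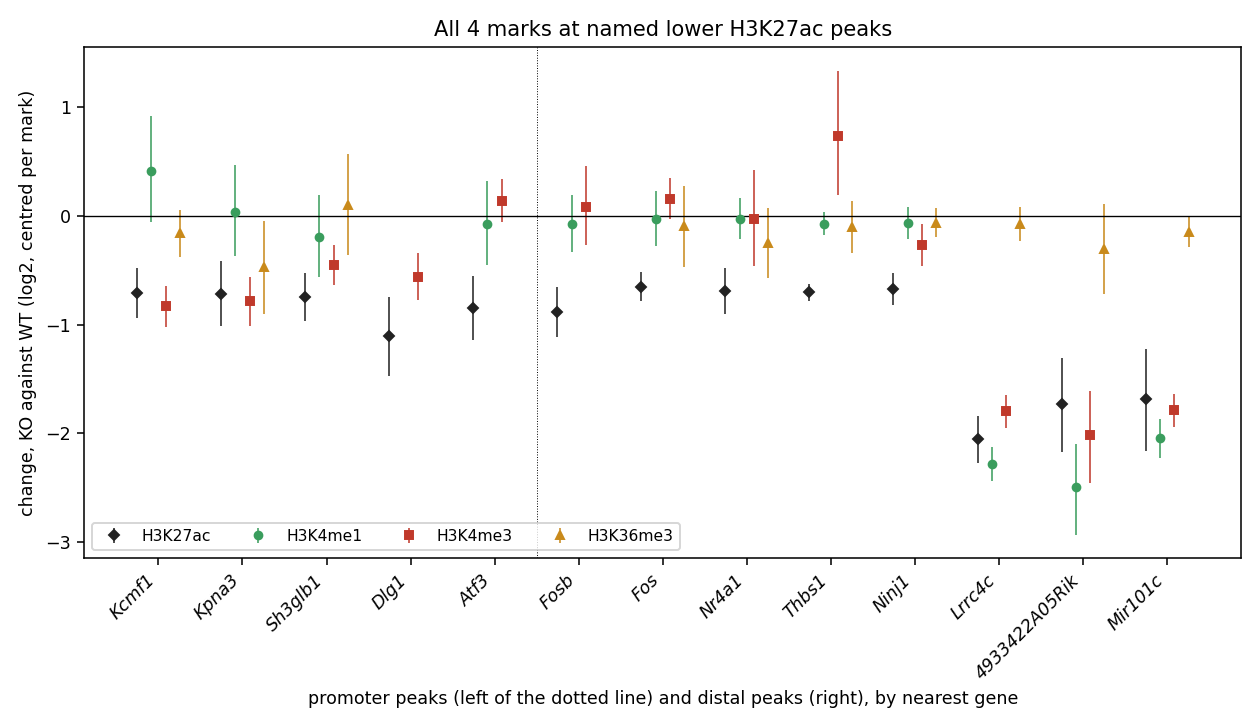
Change of the 4 marks (log2, KO against WT, centred per mark) with 95% counting intervals at named H3K27ac peaks, promoter peaks left of the dotted line and distal peaks right of it, by nearest gene. H3K4me3 is below 0 with H3K27ac at Kcmf1, Kpna3, Sh3glb1 and Dlg1, near 0 at Atf3, Fosb, Fos and Nr4a1, and at Lrrc4c, 4933422A05Rik and Mir101c H3K4me1 and H3K4me3 are as low as H3K27ac.

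Beyond the early genes, other strong distal peaks were lower too, some of them broad. The peak assigned to Thbs1 (thrombospondin 1), 43.2 kb wide and 133 kb upstream of it (chr2:117783258-117826422, mm9), had 2961 normalized reads in KO and 4628 in WT cells (-0.70, -0.78 to -0.62). H3K4me1 there was -0.07 and H3K36me3 -0.10, while H3K4me3 was higher (0.74, 0.19 to 1.34). The peak at Ninj1, whose product ruptures the plasma membrane of dying cells, had 921 and 1407 (-0.67, -0.82 to -0.52). A peak near Cd44, the hyaluronan receptor, had 151 and 259 (-0.83, -1.19 to -0.48), and 1 near Asprv1, a protease gene expressed in neutrophils, had 281 and 451 (-0.74, -1.0 to -0.47). By WT sums over distal sites, Pisd-ps3 led with 7087 in KO and 8242 in WT cells (-0.28, -0.34 to -0.22), then Cmip with 7855 and 7661 (-0.02, -0.08 to 0.04), A530013C23Rik with 5757 and 7006 (-0.34, -0.41 to -0.28), S100a8 with 5511 and 5789 (-0.13, -0.20 to -0.06) and Hdac4 with 5502 and 5677 (-0.10, -0.17 to -0.03). The gene assigned to a distal peak is the nearest one and need not be its target.

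Genes of the neutrophil lineage and of chemoattractant sensing leaned slightly lower at distal sites. Of 19 measured lineage genes 15 lay below 0 (42.5% of all genes; median -0.12), 10 with intervals below 0 against 7.66% of genes. Cxcr2, the receptor for CXCL1 and CXCL2, had 476 and 603 (-0.40, -0.62 to -0.18), and Retnlg, a resistin-like gene of mature neutrophils, had 1189 and 1445 (-0.34, -0.48 to -0.20). Gfi1, a repressor needed for granulopoiesis, had 656 and 537 (0.23, 0.01 to 0.46). Of 10 chemoattractant receptor genes 9 lay below 0 (42.5% of all genes), and Ccr2, the monocyte chemokine receptor, was the exception, with 273 and 162 (0.69, 0.30 to 1.11). Genes of Toll-like receptor signalling were split, with 11 of 18 promoters above 0 and 7 below (54.0% of all genes). Cd14, the lipopolysaccharide co-receptor, had 231 and 140.4 at its promoter (0.65, 0.23 to 1.11), Tlr7, a receptor for single-stranded RNA, had 113 and 60.6 at distal sites (0.83, 0.20 to 1.55), and Unc93b1, which carries nucleic acid sensing receptors to endosomes, had 85.0 and 38.5 (1.06, 0.29 to 1.99). Tlr5, the flagellin receptor, had 745 and 886 (-0.31, -0.49 to -0.13).

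Among genes that write, read or erase the mark, 12 of 16 measured promoters lay below 0 (54.0% of all genes; median -0.14 against -0.02). Crebbp, which encodes CBP, had 288 normalized reads in KO and 383 in WT cells (-0.47, -0.74 to -0.18), while Ep300, which encodes p300, had 965 and 925 (0.00, -0.17 to 0.18). Kdm6b, an H3K27 demethylase gene, had 1102 and 1462 (-0.47, -0.61 to -0.32). Distal H3K27ac of Crebbp was higher, with 94.8 and 46.8 (0.94, 0.23 to 1.78), so promoter and distal values of this gene went opposite ways. The list did so too, as 7 of its 9 measured distal sums lay above 0 and 2 below (42.5% of all genes). The distal median was 0.11 against 0.04, with 1 interval above 0 and 2 below. Of the 11 genes of Polycomb repressive complex 2, all had a measured promoter and 7 lay below 0, near the share of all genes. At distal sites all 6 measured sums lay above 0 (median 0.13 against 0.04), 1 with an interval above 0. Of all genes, 42.5% lay below 0 there. At promoters of this complex, the values were as follows. Aebp2 was lowest with 383 and 531 (-0.53, -0.77 to -0.29), and Ezh2, the catalytic subunit, had 315 and 330.4 (-0.13, -0.42 to 0.17).

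**Figure D5:**
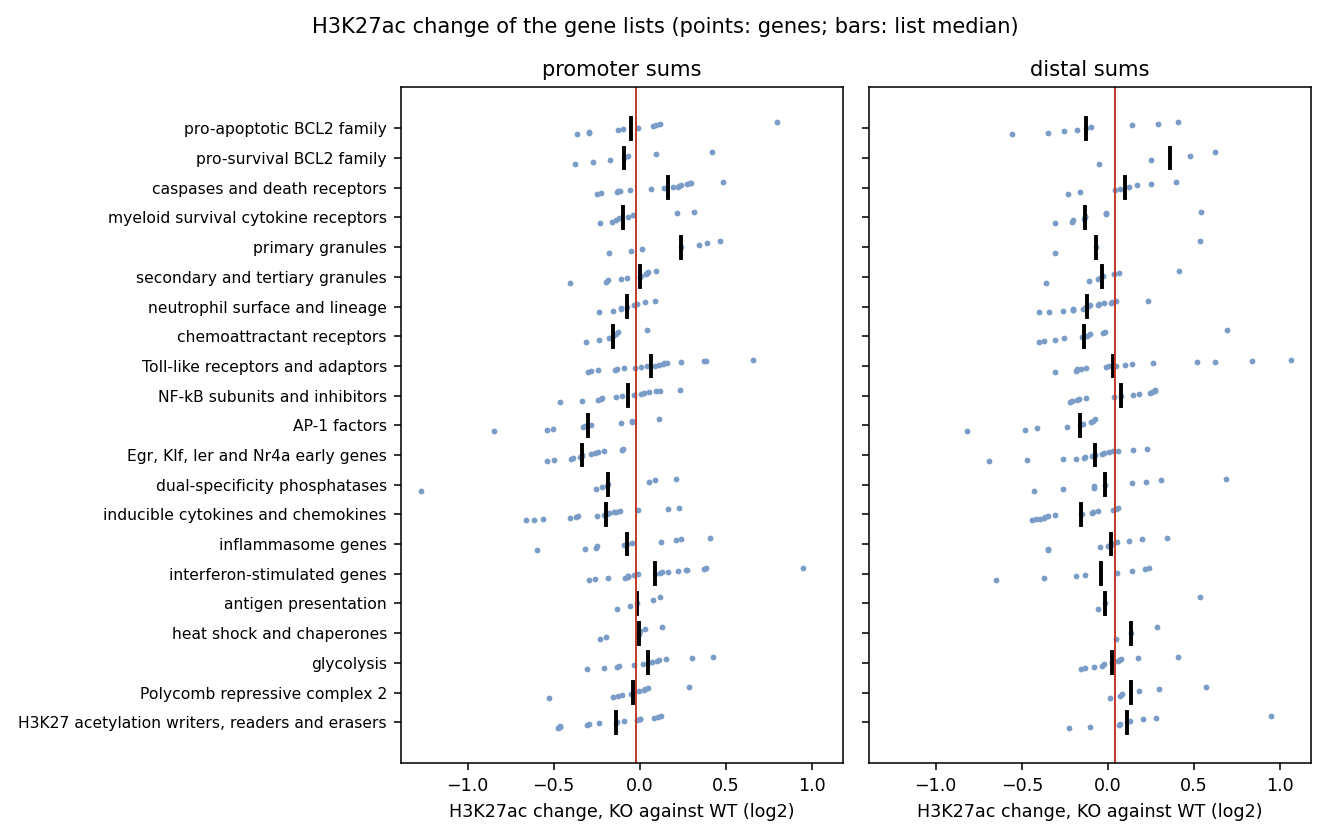
H3K27ac change (log2, KO against WT) of each well-measured gene (points) in 21 gene lists, by promoter sum (left) and distal sum (right); black bars are list medians and red lines the median over all genes. At promoters, the AP-1 and the Egr, Klf, Ier and Nr4a lists have the lowest medians, -0.30 and -0.34. The lists were chosen with earlier results of these data known.

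Promoter and distal changes of a gene were only weakly correlated. Across 3734 genes with both values Pearson's r was 0.12, given as a description over genes that share the libraries. The error of counting reads enters both values, and its part in this r was not tested. Intervals lay below 0 at both promoter and distal sites for 69 genes, among them Fosb, Atf3, Ier5 and Ccl6, and above 0 at both for 32. In 43 genes the promoter was lower and the distal sum higher, and in 4 the reverse. Among the 69, Arl4c, a small GTPase of the ARF family, had 152 and 253 at its promoter (-0.79, -1.15 to -0.43) and 583 and 669 at distal sites (-0.26, -0.46 to -0.05). Among the 32, Mfsd1, a lysosomal transporter, had 182 and 113 at its promoter (0.63, 0.16 to 1.14) and 408 and 262 at distal sites (0.58, 0.27 to 0.91).

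At distal sites that were at least 1.5-fold higher in H3K27ac, H3K4me1 lay above 0 for 66.9% of 414 peaks with a value (median 0.07), against 53.2% of all distal peaks. At sites at least 1.5-fold lower it lay below 0 for 56.6% of 265, against 46.8% of all. The highest distal peaks were weak, with 9 to 22 WT reads in the 10 highest, 5 of them annotated to repeats. Repeats held 42.9% of the 42 distal peaks at least 2-fold higher, against 27.4% of all distal peaks, so that the placement of their reads is uncertain too. The peak at 4930405A10Rik, on an LTR repeat, had 86.2 normalized reads in KO and 24.8 in WT cells (1.70, 0.77 to 2.90), and 1 near Ppp1r26, also on an LTR repeat, had 107 and 33.0 (1.61, 0.80 to 2.62). Stronger higher peaks lay near Gnpda1, with 358 and 195 (0.81, 0.46 to 1.19), near Rrp15, with 435 and 248 (0.75, 0.44 to 1.09), and near Cdk6, a cyclin-dependent kinase gene, with 214 and 121 (0.76, 0.31 to 1.25).

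Several of the lowest distal peaks were low in H3K4me1 and H3K4me3 to the same degree. The lowest (chr2:98505072-98507624, mm9; nearest gene Lrrc4c at 1199 kb) had 228 normalized reads in KO and 908 in WT cells (-2.05, -2.27 to -1.84), with H3K4me1 at -2.28 and H3K4me3 at -1.80. The peaks at 4933422A05Rik, with 67.7 and 217 (-1.73, -2.17 to -1.31), Mir101c, with 59.1 and 184 (-1.68, -2.17 to -1.23), and Chl1, with 29.6 and 90.8 (-1.65, -2.35 to -0.99), lie on satellite repeats in the deposited table, and H3K4me1 there was -2.49, -2.04 and -2.16. Reads from repeats may be placed in more than 1 copy, so these values are uncertain. Pira2, a paired immunoglobulin-like receptor of a multigene family whose reads may be shared among copies, had 29.6 and 93.6 (-1.69, -2.39 to -1.04), with H3K4me1 at 0.25.

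Runs of at least 3 consecutive well-measured peaks past 1.5-fold in the same direction numbered 5, all lower in the KO. The run at Gm14005 (5 peaks) holds the deletion, and that at the start of chromosome 9 (Mir101c and Alkbh8) holds the satellite peaks. At Loxl2 and Mir6950 on chromosome 14, 4 peaks over 61.2 kb held 325 normalized reads together in KO and 608 in WT cells, with changes from -1.15 to -0.86. H3K4me1 there ran from -0.86 to -0.74 and H3K36me3, the mark of transcribed gene bodies, from -1.50 to -0.66, so 3 marks were lower together. Loxl2 encodes a lysyl oxidase that crosslinks collagen. The runs at Tmem100 on chromosome 11 (174 and 264 over 3 peaks) and at Amigo2 on chromosome 15 (155 and 262 over 3 peaks) were of weak peaks.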

How the data were processed

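The authors deposited, for each mark, consensus peaks carrying a read signal, normalized, in both libraries and a log2 ratio that was recomputed here from the signal columns. The submitters' processing notes name build mm9 with HOMER, DiffBind and R 3.1.1, and also MACS2 2.1.0, Bowtie2 2.2.3, Trimmomatic 0.32 and bcl2fastq 2.16.0. The normalization and any input subtraction are not given in the sources used here. In all H3K27ac columns 100% of the deposited signal values were whole multiples of the lowest (within 0.01 of a read), so whole reads were recovered. With 1 library per group no count test was possible. Changes are on the log2(value + 1) scale, which understates low values. Intervals are 95% Clopper-Pearson on the share of KO reads and hold only the error of counting, as duplicated PCR reads are not separate molecules. Gene values sum peaks by nearest gene, at promoters or at distal sites within 100 kb. Other marks were summed over peaks overlapping by at least 1 base.

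Named were, per class, the 10 highest and 10 lowest well-measured peaks by gene with intervals off 0 and outside the deletion, list extremes, Bcl2l11 and Gm14005 peaks, genes in runs and the 5 largest WT distal sums. Stronger peaks (means worth 50 or 100 WT reads) and the further members of the early-response lists were chosen after their values were seen. The members and the 25 gene lists were chosen with earlier results of these data known. Steps were tested on simulated reads. Values were computed with scipy 1.17.1, pandas 2.3.3 and numpy 2.4.6, and plots drawn with matplotlib 3.10.9, under Python 3.11.15. The input libraries were not used here. A few genes that met the naming rule or belong to the lists are not reported here.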

Additional observations from a re-analysis of the deposited data

How the results depend on the processing

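No paired analysis was possible because each genotype had 1 library, and for the same reason no replicate could be left out. Counts of peaks past a fold depended on the depth filter. Without it, promoter peaks at least 1.5-fold higher and lower numbered 782 and 1170 (2-fold: 291 and 533), distal peaks 8896 and 15223 (2-fold: 4126 and 10596), and the promoter minus distal median was 0.036 instead of -0.039. With means worth at least 50 WT reads, and centred anew on those peaks, the counts were 39 and 62 (2-fold: 0 and 4) at promoters and 58 and 41 (0 and 5) at distal sites. KO reads thinned to the WT total gave 247 and 413 (21 and 56), and 842 and 625 (92 and 73). A pseudocount of 10 gave 2 and 19 promoter and 14 and 21 distal peaks past 2-fold. Without centring, 227 promoter peaks gained 1.5-fold or more and 182 lost as much, the reverse of the 148 and 253 with it. Chosen after seeing the data, leaving out peaks annotated to repeats gave 24 distal peaks 2-fold higher, and centring on peaks of similar signal per kb gave 7 promoter peaks 2-fold higher and 28 lower, 296 distal peaks 1.5-fold higher and 387 lower, 20 distal peaks 2-fold higher and 38 lower, which turns the distal direction, and a promoter minus distal median of 0.025. The sign of that median thus changed with the filter and the density centring, and the cause was not tested. Runs numbered 1 at 2-fold and 1 with means worth 50 WT reads. H3K36me3 at promoters 1.5-fold higher had a median of 0.06, and 0.13 with an overlap of at least 50% of the peak. Of 110 named peaks 0 changed sign, and 5 of 1391 of their values left the counting interval. Over all alternatives the AP-1 median lay between -0.32 and -0.11 at promoters and between -0.28 and -0.10 at distal sites, and the Egr, Klf, Ier and Nr4a median between -0.34 and -0.22 at promoters and between -0.13 and -0.02 at distal sites. The cytokine median lay between -0.28 and -0.14 at promoters and between -0.23 and -0.08 at distal sites. The median of dual-specificity phosphatases lay between -0.27 and -0.13 at promoters, and at distal sites it changed sign, from -0.03 to 0.13.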

Other observations

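Medians of lists of other functions differed in sign. Of 14 measured promoters of NF-kB subunits and inhibitors, 4 had intervals below 0, against 11% of genes. Nfkb1 had 421 normalized reads in KO and 556 in WT cells (-0.46, -0.69 to -0.23), and Relb had 309 and 374 (-0.33, -0.61 to -0.05). Distal H3K27ac of Bcl3, an atypical inhibitor of the family, was higher, with 1094 and 867 (0.28, 0.10 to 0.45). Among 11 inflammasome promoters Nlrp3, the sensor of membrane damage, had 693 and 1008 (-0.60, -0.77 to -0.42), and it alone among the 11 had an interval below 0. Of 19 promoters of interferon-stimulated genes 10 lay above 0 (median 0.09), and Ifit2, which binds viral RNA, had 134 and 66.1 (0.95, 0.35 to 1.63). Of 16 promoters of caspases and death receptors 10 lay above 0 (median 0.17, against -0.02 for all genes). Among these 16, 1 had an interval above 0 and 1 an interval below 0. Of 7 promoters of primary granule genes 5 lay above 0 (median 0.24), 1 with an interval above 0. Over all genes 3835 of 8330 promoters lay above 0, and 4.54% had intervals above 0.

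A typical well-measured promoter peak rested on 74 WT reads and a distal peak on 44, which limits what single weak peaks can show. Genotype, library and animal cannot be told apart with 1 library each.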
